A study of Mus musculus with 9 samples.

Results

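Kit, which encodes the receptor tyrosine kinase KIT, and Kitl, which encodes its ligand (KIT ligand, also called stem cell factor), were examined in ovaries of juvenile mice, over the days when follicles first form an antrum (iFFA, for initial formation of follicular antrum). They were taken by gene symbol from the deposited expression tables and are 2 of the 52025 genes listed there. The RNA-Seq data comprised 9 libraries of Kunming mice, 3 each for postnatal day (PD) 14, 15 and 16, and the study describes its replicates as independent ovaries. The labels name no treatment and no altered allele for any group. Its question was how transcription in the ovary changes over the days on which the first antra appear. The comparisons are thus between ages only. The labels name the tissue as ovary but the source as granulosa cells, whereas the study's methods describe ovaries, and transcripts of oocytes, theca, stroma, endothelium and blood were present in every library. The libraries were therefore treated as ovaries.

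In the growing follicle, granulosa cells surround the oocyte and are the main source of KITL, while KIT stands on the oocyte surface and on theca and interstitial cells. Binding of KITL joins receptor molecules into pairs that phosphorylate each other, and the signal runs through PI3K and AKT to the FOXO transcription factors and through RAS to the MAP kinases. Mutations of either gene, known for white coat spotting and loss of mast cells, also impair germ cell survival and follicle growth. KITL is made as a membrane protein, and proteases release part of it from the cell surface.

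Each gene has well-known alternative forms that differ by a short coding segment, and the sequences are shown because the deposited values cannot tell these forms apart. Kitl (ENSMUSG00000019966) lies on the plus strand at chr10:100015630-100100416 of GRCm38 (mm10) in the GENCODE M21 annotation. Exon 6 of the 10 exons of its transcript Kitl-202, 84 bases at chr10:100080857-100080940, is coding and holds the main site at which the ligand is cleaved from the membrane. Transcript Kitl-201 skips it and encodes the form that stays mostly membrane-bound. Both are printed 5′ to 3′ across the junction, with exon 6 in capitals and 30 bases of neighbouring coding sequence on each side in lower case.
Kitl-202: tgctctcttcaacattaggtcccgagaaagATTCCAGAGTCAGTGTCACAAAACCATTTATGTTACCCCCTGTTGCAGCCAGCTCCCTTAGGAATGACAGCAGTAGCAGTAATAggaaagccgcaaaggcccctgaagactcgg
Kitl-201: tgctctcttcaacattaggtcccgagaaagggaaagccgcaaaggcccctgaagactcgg

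Kit (ENSMUSG00000005672) lies on the plus strand at chr5:75574916-75656722 of the same build. Its forms differ by 12 bases at the end of exon 9 of 21, at chr5:75639147-75639158, which code for a stretch of the extracellular part next to the membrane. The longer form, Kit-201, is printed with these bases in capitals, and Kit-204 lacks them.
Kit-201: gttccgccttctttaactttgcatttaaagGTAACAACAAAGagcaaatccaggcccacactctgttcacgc
Kit-204: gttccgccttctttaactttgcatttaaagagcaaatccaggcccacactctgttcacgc
The values below sum all forms of a gene, and no other annotated gene overlaps either locus.

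Levels were deposited as FPKM, that is mapped fragments divided by the length of the exons and by the depth of the library. Levels of different genes can be set side by side on this scale only as far as that length holds. All annotated exons together cover 8911 bases for Kit and 5911 for Kitl. Transcripts Kit-201 and Kitl-202 are 5214 and 5648 bases long. Where most transcripts are of these lengths, FPKM understates Kit more than Kitl. From the spacing of low FPKM, 95.6% to 96.2% of which were whole multiples of the value of a single fragment (tolerance 0.02), the depth was 20.4 to 28.7 M fragments in each library (median 24.2 M). Kit then rested on an estimated 2361 to 3270 fragments per library and Kitl on 5101 to 10320. Counting error alone was 1.75% to 2.06% of the level for Kit and 0.984% to 1.40% for Kitl. Mitochondrial genes took 5.19% to 6.27% of the summed FPKM, with the highest share in PD15 replicate 3, which was also the deepest library.

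Kitl was the more abundant of the pair and was lowest at PD16. At PD14, its level was 61.0, 53.5 and 52.1 FPKM in replicates 1, 2 and 3, with a mean of 55.5 ± 4.75 (SD, n = 3). At PD15, it was 45.9, 47.9 and 60.8 FPKM, with a mean of 51.5 ± 8.05. At PD16, it was 40.8, 42.0 and 33.9 FPKM, with a mean of 38.9 ± 4.36. All 3 PD16 libraries lay below every library of the other days, whereas 1 of the PD15 libraries lay within the range of PD14 and the others below it. Among the 15495 genes tested (mean above 1 FPKM on at least 1 day), Kitl ranked 887th from the highest at PD14, 966th at PD15 and 1413th at PD16.

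Kit was of middling abundance and varied over a smaller range. Its level at PD14 was 14.5, 14.3 and 13.8 FPKM, with a mean of 14.2 ± 0.339 (SD, n = 3). At PD15, it was 13.3, 15.0 and 12.8 FPKM, with a mean of 13.7 ± 1.16. At PD16, it was 11.4, 11.7 and 13.4 FPKM, with a mean of 12.2 ± 1.09. The PD16 libraries lay below those of PD14, the highest at 13.4 FPKM against the lowest PD14 library at 13.8 FPKM. Of all genes, 13.5% were lower in every PD16 than in every PD14 library. The PD16 libraries of Kit overlapped with those of PD15. Kit ranked 4551st, 4757th and 5333rd from the highest on the 3 days.

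**Figure D1:**
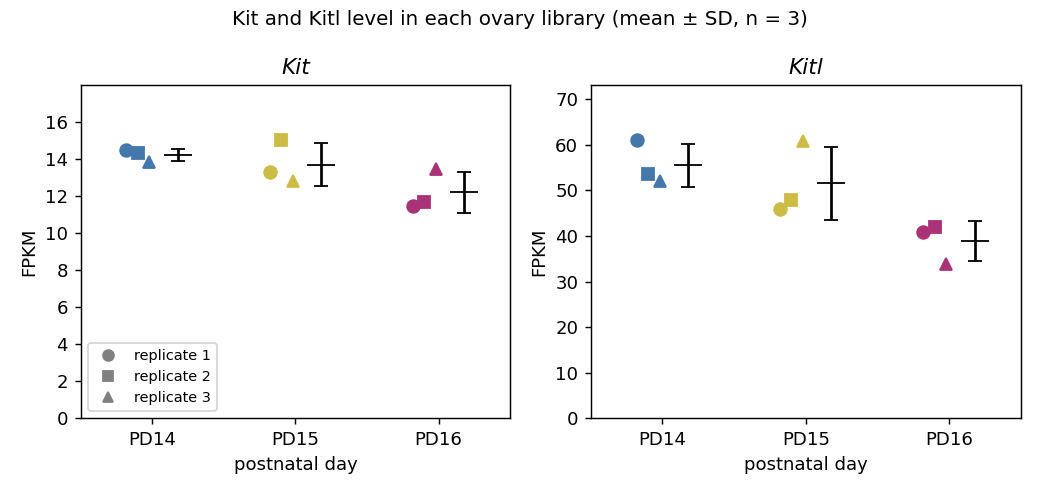
Level of Kit (left) and Kitl (right) in FPKM on the vertical axis, which starts at 0, against postnatal day. Symbols are the replicates of each day, and bars are the mean ± SD of 3 libraries. Kitl at PD16 (33.9 to 42.0 FPKM) lies below all libraries of PD14 and PD15, whereas Kit at PD16 (11.4 to 13.4 FPKM) overlaps with PD15.

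Between PD14 and PD16, Kitl fell by 0.50 on the log2(FPKM + 1) scale (standard error 0.12, 95% interval -0.77 to -0.24), a mean level 29.9% lower. This passed the test narrowly (limma, Benjamini-Hochberg adjusted p = 0.0494). At that threshold 4.25% of all genes differed between these days, 1.89% lower and 2.36% higher at PD16. Every PD16 library of Kitl was below every PD14 library, which held for 13.5% of all genes. An exact two-sided permutation test of the 3 PD16 against the 3 PD14 libraries gave p = 0.1, the smallest that this number allows. The adjusted p stayed under 0.05 in 4 of 18 alternative fits and ranged from 0.0274 to 0.132, while the difference stayed between -0.56 and -0.41. Of all genes tested, 1.93% had a lower difference than Kitl between these days.

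Between PD15 and PD16, Kitl was 24.5% lower on average, a difference of -0.39 (95% interval -0.66 to -0.12). Every PD16 library was below every PD15 library, as for 9.73% of all genes. The difference missed the threshold (limma, adjusted p = 0.174), which 0.729% of genes passed, 0.297% lower and 0.432% higher. Between PD14 and PD15, the difference was -0.11 (95% interval -0.38 to 0.16, adjusted p = 0.705 by limma), and 0.678% of genes passed, 0.342% lower and 0.336% higher. The Kitl libraries of PD14 and PD15 overlapped, whereas 10.2% of genes were lower in every PD15 library than in every PD14 library. Kitl in PD15 replicate 3 (60.8 FPKM) was close to the highest PD14 library (61.0 FPKM), and the other PD15 libraries, at 45.9 and 47.9 FPKM, lay below all of PD14. Without that library the difference of Kitl was -0.24 between PD14 and PD15 (adjusted p = 0.369) and -0.27 between PD15 and PD16 (adjusted p = 0.283, both by limma). The former was nearer to 0 at -0.037 without PD15 replicate 1, -0.045 without PD14 replicate 1 and -0.067 without PD15 replicate 2. It was -0.14 without PD14 replicate 2 and -0.16 without PD14 replicate 3. PD15 replicate 3 also had the highest mitochondrial share and depth, and the part of these in its Kitl value was not tested.

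For Kit, no comparison passed the threshold. The difference between PD14 and PD16 was -0.21 on the log2(FPKM + 1) scale (95% interval -0.38 to -0.04, unadjusted p = 0.0215, adjusted p = 0.143 by limma), a mean level 14.3% lower. Of all genes, 22.8% had an unadjusted p under 0.05 between these days. It was -0.05 between PD14 and PD15 (95% interval -0.22 to 0.12, adjusted p = 0.790 by limma) and -0.16 between PD15 and PD16 (95% interval -0.33 to 0.02, adjusted p = 0.394 by limma). When each library was left out in turn, Kit at PD15 against PD14 ranged from -0.12 (without PD15 replicate 2) to -0.0096 (without PD15 replicate 3). Kit at PD16 against PD15 ranged from -0.22 (without PD16 replicate 3) to -0.092 (without PD15 replicate 2). In the exact permutation test, p was 0.1 for PD16 against PD14, 0.5 for PD15 against PD14 and 0.3 for PD16 against PD15. A fall of Kit by up to 0.38 on this scale between PD14 and PD16 is therefore within the interval, and so is one of 0.04. Of all genes tested, 13.4% had a lower difference than Kit between these days.

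**Figure D2:**
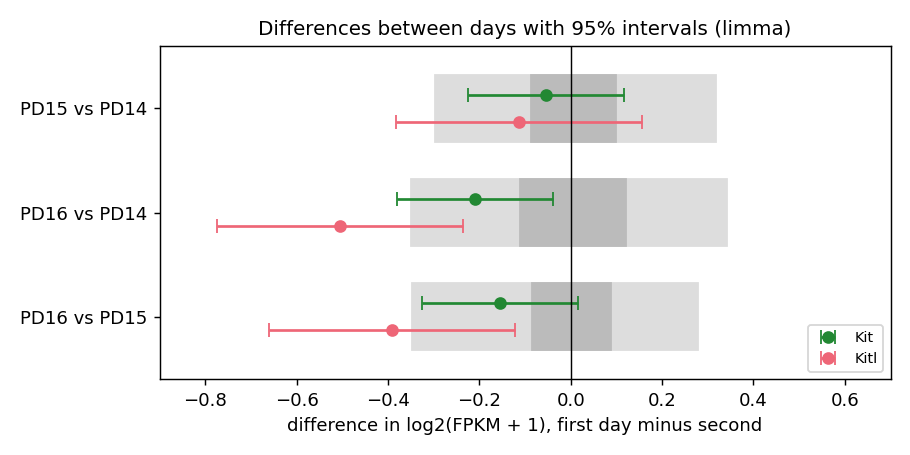
Differences of Kit and Kitl between days in log2(FPKM + 1) on the horizontal axis, as the first-named day minus the second, with 95% intervals from limma over 9 libraries. Dark and light grey bands hold the middle 50% and 90% of the differences of all 15495 genes tested. Kitl at PD16 against PD14 (-0.50) and against PD15 (-0.39) lies left of the light band, and Kit lies within it in all comparisons.

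Over the 3 days together, 70.9% of the variation of Kitl among libraries, as a share of the sum of squares, lay between days (exact permutation test over all 280 groupings of the libraries, one-sided, p = 0.0214) and 56.5% for Kit (p = 0.1 by the same exact test). The p of Kitl was 0.05 without PD14 replicate 1, 0.0607 without PD14 replicate 2 and 0.121 without PD16 replicate 3 in this exact permutation test. That of Kit was 0.0429 without PD16 replicate 3. The smallest p that these groupings allow is 0.00357.

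The ligand exceeded its receptor in FPKM in every library. The ratio of Kitl to Kit in FPKM was 4.22, 3.74 and 3.77 in the PD14 libraries, with a mean of 3.91 ± 0.267 (SD, n = 3). It was 3.46, 3.20 and 4.76 at PD15, with a mean of 3.81 ± 0.834, and 3.57, 3.60 and 2.53 at PD16, with a mean of 3.23 ± 0.612. The ranges of PD16 and PD14 did not overlap, and those of PD15 overlapped with both. PD16 replicate 3 combined the lowest Kitl with the highest Kit of its day, and PD15 replicate 3 the highest Kitl with the lowest Kit. No test was made of this ratio, which is a score over the members. Its size depends on the exon lengths used for both genes.

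In whole ovaries, fewer cells of a type and less RNA per cell cannot be told apart, so the levels were set beside markers of the cells known to make each product. The 13 granulosa cell markers were above 0 in every library, with a summed level of 3374 to 4107 FPKM at PD14, 3214 to 3596 at PD15 and 3355 to 3942 at PD16, which overlapped between the days. Between PD14 and PD16, 1 of them rose and 1 fell in limma, where 2.36% of all genes rose and 1.89% fell. At an unadjusted p under 0.05 in limma, 5, 7 and 5 of the 13 passed for PD15 against PD14, PD16 against PD14 and PD16 against PD15. Of all genes, 14.7%, 22.8% and 14.1% did. At PD16 against PD14, 6 were higher and 7 lower, so their mean is taken over genes that moved both ways. Amh, a hormone of growing follicles, rose from 176 ± 9.31 to 245 ± 10.5 FPKM (log2 difference 0.47, adjusted p = 0.0223 by limma). Cyp19a1, the aromatase that makes estradiol, fell from 5.11 ± 1.43 to 2.37 ± 0.428 FPKM (log2 difference -0.84, adjusted p = 0.0316 by limma). The call of Amh was kept in 14 of 18 alternative fits and that of Cyp19a1 in 10. The FSH receptor gene Fshr had means of 14.2, 12.8 and 17.9 FPKM on the 3 days and did not pass the test in any comparison. By qRT-PCR of ovaries, the study reported increased CYP19A1 and CYP11A1 at PD15 and PD16, so Cyp19a1 differs in direction here. It also reported upregulation of FSHR by RNA-Seq and qRT-PCR. The cause of the difference was not tested.

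Relative to the mean log2(FPKM + 1) of the granulosa cell markers, Kitl stood at -0.99 ± 0.135 at PD14, -0.97 ± 0.207 at PD15 and -1.42 ± 0.0651 at PD16 (mean ± SD, n = 3). Each PD16 library, at -1.41, -1.36 and -1.48, was below the lowest of the other days at -1.15. Of the sum of squares, 74.5% lay between days (exact permutation test, one-sided, p = 0.0321). The p rose to 0.0571 without PD15 replicate 2, 0.0679 without PD16 replicate 1, 0.0536 without PD16 replicate 2 and 0.0964 without PD16 replicate 3 in the same exact permutation test.

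The 15 oocyte markers were present as well, with a summed level of 1494 to 1865 FPKM at PD14, 1920 to 2097 at PD15 and 1358 to 1492 at PD16. Their highest levels were thus at PD15, and all 15 had a lower mean log2 level at PD16 than at PD15, as 7259 of the 15495 genes tested had. Of these markers, Zp2 (log2 difference -0.61, adjusted p = 0.0427), a protein of the egg coat, and Nlrp5 (-0.72, adjusted p = 0.0439), a maternal effect gene, fell by limma, and Nlrp5 had risen from PD14 to PD15 (0.76, adjusted p = 0.0377). Of all genes, 0.297% fell from PD15 to PD16 and 0.336% rose from PD14 to PD15. Zp1, another egg coat gene, had means of 99.9, 116 and 83.1 FPKM on the 3 days, with no comparison past the threshold. The call of Zp2 was kept in 9 of 18 alternative fits, and those of Nlrp5 in 8 for its fall and 9 for its rise. Relative to the mean of the oocyte markers, Kit stood at -2.18 ± 0.187 at PD14, -2.44 ± 0.196 at PD15 and -2.20 ± 0.0686 at PD16. The days overlapped in this measure (exact permutation test, one-sided, p = 0.221). The between-day share moved from 43.0% to between 24.5% (without PD15 replicate 3) and 64.8% (without PD15 replicate 2, exact permutation p = 0.0571) when single libraries were left out.

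**Figure D3:**
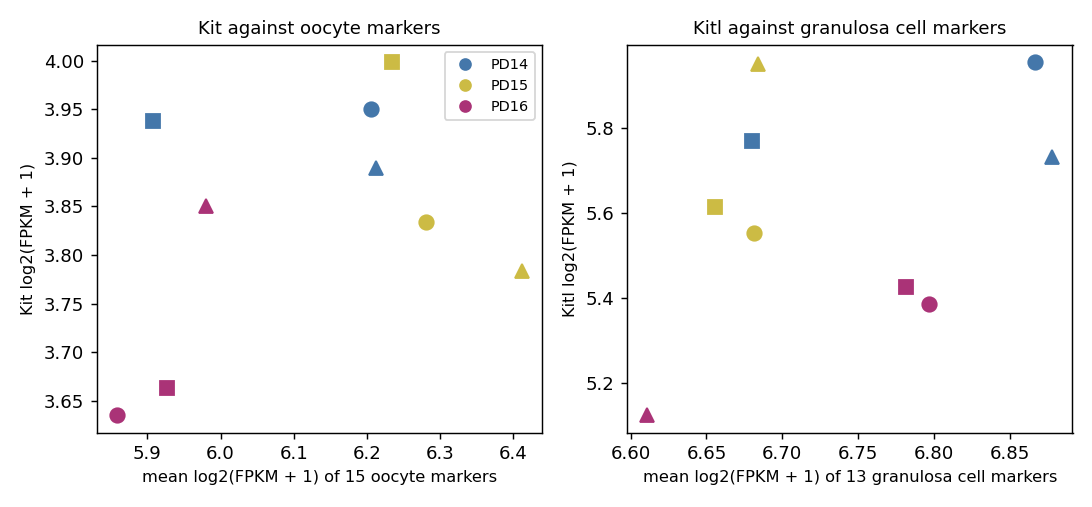
Level of Kit against oocyte markers (left) and of Kitl against granulosa cell markers (right), each in log2(FPKM + 1) with the marker list as the mean over its genes. Each point is a library, coloured by day, with circles, squares and triangles for replicates 1, 2 and 3. At a given granulosa marker level the PD16 libraries lie low in Kitl (5.13 to 5.43 on the vertical axis), and Kit shows no such separation.

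Across the 9 libraries, 4 relations were computed, and none passed a two-sided exact permutation test. Kit correlated with the oocyte markers at Pearson's r = 0.41 (exact p = 0.276, adjusted over the 4 relations p = 0.434) and Spearman's rho = 0.23 (exact p = 0.552, adjusted p = 0.581). After leaving out the 2 libraries farthest from the median of the markers, r was 0.38, and within days, on values centred by day, it was -0.13. Kit with the 9 theca and interstitial markers gave r = 0.23 (exact p = 0.536, adjusted p = 0.536) and rho = 0.22 (exact p = 0.581, adjusted p = 0.581), with r = -0.16 without the 2 farthest libraries and 0.29 within days.
Kitl with the granulosa cell markers gave r = 0.37 (exact p = 0.326, adjusted p = 0.434) and rho = 0.35 (exact p = 0.359, adjusted p = 0.581), with r = -0.016 without the 2 farthest libraries and 0.49 within days. Kit and Kitl gave r = 0.42 (exact p = 0.263, adjusted p = 0.434) and rho = 0.50 (exact p = 0.178, adjusted p = 0.581), with r = 0.52 without the 2 farthest libraries. Leaving out single libraries, r was 0.16 (without PD16 replicate 1) to 0.61 (without PD15 replicate 3) for Kit with the oocyte markers, 0.06 (without PD16 replicate 3) to 0.54 (without PD15 replicate 3) for Kitl with the granulosa cell markers, and 0.30 to 0.60 for Kit with Kitl. Within days, the r of Kit with Kitl was -0.60. No p is given for it, since values centred by day cannot be exchanged freely between days. The receptor and its ligand were thus both lower at PD16 in their means. Among libraries of the same age the sign of r was the opposite, which was not tested. The r over all 9 libraries did not pass the test.

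Other cell types carry KIT too, and their markers were examined beside it. Mast cells depend on KIT, and the 8 mast cell markers summed to 3.26 to 6.70 FPKM at PD14, 2.52 to 5.61 at PD15 and 1.46 to 2.26 at PD16, so that the PD16 libraries were lowest. Their defining genes Cpa3 and Mcpt4 were at 0.155 to 0.693 FPKM in the means of the days, too low to be tested. The 2 other members that were tested were not called in limma. Both were lower at PD16 with an unadjusted p under 0.05 in limma. The median difference was -0.64 against PD14 and -0.59 against PD15, where 22.8% and 14.1% of all genes passed this p in either direction. At PD16 the 8 markers together were at 1.48, 2.26 and 1.46 FPKM, so the 2 did not both pass the filter of 1 FPKM there. Passing it through an earlier day favours a lower value at PD16, so these differences are a description only. The 5 melanocyte markers summed to 0.336 to 1.10 FPKM, and the defining gene Dct was listed at 0 in all libraries of PD15 and PD16. The part of mast cells in the level of Kit was not tested. The theca and interstitial markers summed to 1659 to 2287 FPKM at PD14, 1221 to 1804 at PD15 and 1258 to 1675 at PD16. Their gene Cyp17a1, which makes androgens, had means of 28.9, 21.6 and 37.1 FPKM, and Cyp11a1, which begins steroid synthesis, of 46.8, 25.2 and 32.8 FPKM, and no theca marker passed the test in any comparison.

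Markers of the surface epithelium went both ways between PD14 and PD16. Of the 7 tested, 4 were lower and 3 higher at PD16 than at PD14. The 3 higher ones were Upk1b, Upk3b and Msln, and none of these was called. The defining genes thus differed in direction, with Krt19 lower and Upk3b higher. All 4 lower ones fell between PD14 and PD16 in limma, as 1.89% of all genes did, namely Krt18 (log2 difference -0.45, adjusted p = 0.0121), Krt8 (-0.48, adjusted p = 0.0222), Krt19 (-0.42, adjusted p = 0.0335) and Lgals7 (-0.49, adjusted p = 0.0239). The summed level of the 8 markers was 71.3 to 82.7 FPKM at PD14 and 55.4 to 61.4 at PD16. Of these calls, that of Krt18 was kept in 17 of 18 alternative fits, that of Krt8 in 14, that of Lgals7 in 13 and that of Krt19 in 10. Krt7 was too low to be tested. The 8 endothelial markers were all lower at PD16 than at PD14, with a median difference of -0.19, against 7409 of 15495 genes and a median of 0.01 over all genes. Of these 8, Tie1, a receptor of blood vessels, fell (-0.25, adjusted p = 0.0458 by limma), as 1.89% of all genes did, while Pecam1 and Cdh5 did not pass. The call of Tie1 was kept in 4 of 18 alternative fits and in none that left out a library. The 6 stromal markers, among them Col1a1 and Col1a2, gave no call. All 6 were lower at PD16 than at PD14, with a median difference of -0.10, as 7409 of 15495 genes were. Of the 6 blood cell markers tested, 5 were lower at PD15 than at PD14 (median difference over the 6 -0.78), as 7453 of 15495 genes were. The haemoglobin gene Hba-a1 was the only one called, and it fell between these days (-1.35, adjusted p = 0.0381 by limma), as 0.342% of all genes did. Of the oviduct and fat markers, only the lipid droplet gene Plin1 was tested. It fell from PD14 to PD15 (-0.60, adjusted p = 0.0377) and to PD16 (-0.50, adjusted p = 0.0294, both by limma). Among all genes, 0.342% fell from PD14 to PD15 and 1.89% from PD14 to PD16. The call of Hba-a1 was kept in 9 of 18 alternative fits, and those of Plin1 in 9 for PD15 and 11 for PD16. The part of these cell types in the fall of Kitl was not tested.

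Genes that act with KIT were described in 8 lists ordered by role, and 87 of their 96 genes were expressed enough to be tested. Between PD14 and PD16, 4 of them rose and none fell, that is 4.60%, against 2.36% of all genes that rose and 1.89% that fell. At an unadjusted p under 0.05, 24 passed, where 22.8% of all genes did. The median difference over the 87 genes was 0.03, against 0.01 over all genes. Between PD14 and PD15, none passed in limma (17 at an unadjusted p under 0.05, where 14.7% of all genes passed). Between PD15 and PD16, 1 rose (1.15% against 0.432% of all genes), and 16 passed at an unadjusted p under 0.05 (14.1% of all genes).

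At the level of the ligand, the proteases that shed membrane proteins were measured, since they release soluble KITL. Adam17, a sheddase of many cell surface proteins, was at 18.6 ± 1.17 FPKM at PD14, 21.8 ± 1.00 at PD15 and 23.5 ± 1.54 at PD16 (SD, n = 3). Its libraries did not overlap between PD14 and PD16, as for 15% of all genes in this direction, and it rose by 0.32 on the log2 scale (adjusted p = 0.0363 by limma), the direction opposite to that of Kitl. Adam10, a related sheddase, was the most abundant gene of the list with means of 49.8, 52.1 and 53.3 FPKM, and its difference of 0.10 did not pass. Of the 4 tested members, Adam17 was the only one called, where 2.36% of all genes rose between PD14 and PD16.

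The receptor belongs to the class III receptor tyrosine kinases, and none of the 3 relatives tested passed in any comparison. At an unadjusted p under 0.05, 2 of them did for PD15 against PD14, 0 for PD16 against PD14 and 2 for PD16 against PD15 (limma), where 14.7%, 22.8% and 14.1% of all genes did. Pdgfra, a receptor for platelet-derived growth factors, had means of 30.4, 32.4 and 28.4 FPKM on the 3 days, and Pdgfrb, its partner, of 22.3, 18.9 and 22.3 FPKM. Both had higher FPKM than Kit, a comparison that depends on the exon lengths used. Csf1r, the receptor of macrophages, had means of 2.03, 1.70 and 1.96 FPKM, and Flt3, a receptor of blood progenitors, was at or under 0.0556 FPKM in every library and was not tested. Among their 6 tested ligands, none was called in any comparison. Of all genes, 0.678% were called for PD15 against PD14, 4.25% for PD16 against PD14 and 0.729% for PD16 against PD15. At an unadjusted p under 0.05 in limma, 0, 3 and 1 of the 6 passed in the same order. The shares of all genes at this p are those given above. Pdgfc, a ligand of the PDGF receptors and the most abundant of the list, had means of 13.3, 14.5 and 16.4 FPKM (PD16 against PD14 0.29, adjusted p = 0.0659 by limma). All of these ligands were thus below Kitl in level.

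Directly downstream, none of the 24 tested adaptors and kinases that bind the activated receptor passed in any comparison, with 3, 3 and 2 of them at an unadjusted p under 0.05 for PD15 against PD14, PD16 against PD14 and PD16 against PD15, where 14.7%, 22.8% and 14.1% of all genes passed. Crk, an adaptor and the most abundant of them, had means of 41.5, 43.7 and 45.4 FPKM. Of the 15 tested negative regulators, none passed either, with 4, 4 and 2 at an unadjusted p under 0.05 in limma, to be read against the same shares. Grb10, an adaptor that dampens receptor signals, was level at means of 24.1, 24.1 and 24.1 FPKM.

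In the PI3K arm, 1 of 12 tested genes was called, higher at PD16 than at PD14 and PD15, where 2.36% and 0.432% of all genes rose. Foxo1, a transcription factor that AKT keeps out of the nucleus, was at 31.9, 27.8 and 30.4 FPKM in the PD14 libraries. It was at 44.2, 43.2 and 36.9 FPKM at PD15, and at 58.1, 54.0 and 60.3 FPKM at PD16. The libraries of the 3 days did not overlap, and each day was higher than the one before, whereas 10.4% of all genes were higher in every PD15 than in every PD14 library and 9.85% in every PD16 than in every PD15 library. The difference was 0.92 between PD14 and PD16 (adjusted p = 0.00419) and 0.47 between PD15 and PD16 (adjusted p = 0.0462, both by limma). The former passed in all 18 alternative fits (adjusted p 0.00199 to 0.0214) and the latter in 5 of 18. Between PD14 and PD15, the difference was 0.45 (adjusted p = 0.0538 by limma). The cells in which Foxo1 rose, and any part of KIT in its rise, were not tested. Rps6, a ribosomal protein that S6 kinase phosphorylates and the most abundant of the arm, had means of 726, 729 and 792 FPKM and did not pass. Pik3r2 was listed at 0 in all 9 libraries. For PD15 against PD14, PD16 against PD14 and PD16 against PD15, 2, 4 and 2 genes had an unadjusted p under 0.05 in limma. Of all genes, 14.7%, 22.8% and 14.1% did.

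In the RAS and MAP kinase arm, Map2k1, which encodes MEK1, was the only one of 12 genes called, at PD16 against PD14, where 2.36% of all genes rose. It rose from 23.5 ± 1.48 FPKM at PD14 to 33.6 ± 4.20 at PD16 (0.49, adjusted p = 0.0384 by limma) and already stood at 33.8 ± 4.01 at PD15 (0.50, adjusted p = 0.0794). Mapk3, which encodes ERK1, was the most abundant, with means of 81.2, 78.2 and 73.0 FPKM, and did not pass. For PD15 against PD14, PD16 against PD14 and PD16 against PD15, 3, 5 and 2 genes had an unadjusted p under 0.05 in limma. Of all genes, 14.7%, 22.8% and 14.1% did.

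**Figure D4:**
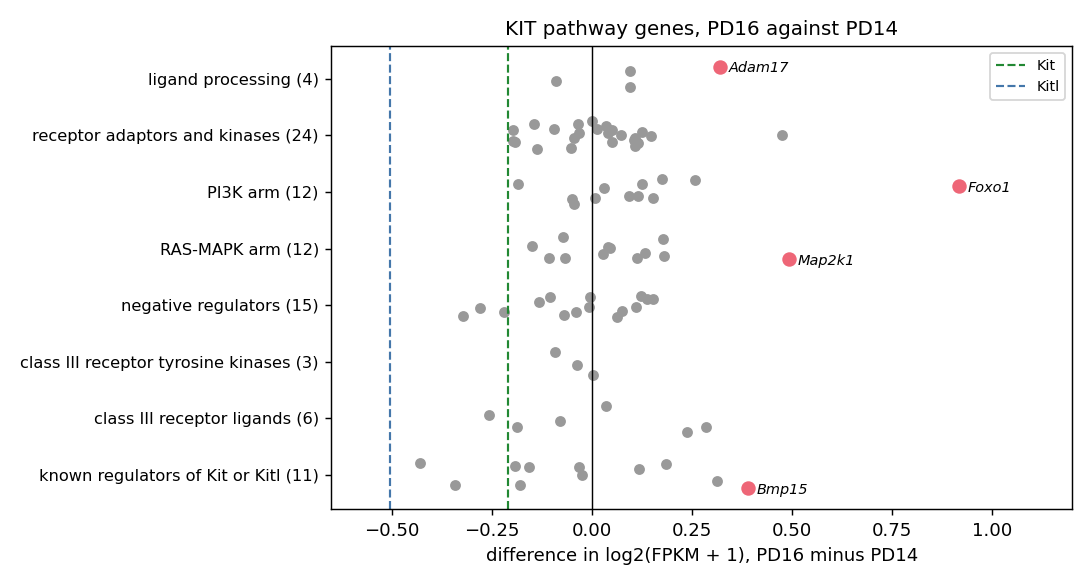
Difference between PD16 and PD14 in log2(FPKM + 1) on the horizontal axis for the genes tested in each list, whose number stands in brackets. Red points are genes with an adjusted p under 0.05 in limma, and dashed lines mark Kit (-0.21) and Kitl (-0.50). All 4 red points lie right of 0, and no point lies left of the line of Kitl.

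The last list held 11 genes known to regulate Kit or Kitl or to act on them in the follicle. From PD14 to PD16, 1 of them rose, as 2.36% of all genes did. For PD15 against PD14, PD16 against PD14 and PD16 against PD15, 2, 4 and 5 genes had an unadjusted p under 0.05 in limma. Of all genes, 14.7%, 22.8% and 14.1% did. Bmp15, an oocyte growth factor known to raise Kitl in cultured granulosa cells, was at 49.7 ± 3.03 FPKM at PD14, 65.6 ± 5.73 at PD15 and 65.4 ± 4.27 at PD16 (0.39, adjusted p = 0.0331 by limma). Gdf9, an oocyte growth factor known to lower Kitl in cultured granulosa cells, was the most abundant with means of 242, 260 and 212 FPKM, and no comparison of it passed. For Bmp15 and Gdf9 the direction of their own level between PD14 and PD16 is given only as a value.

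Among the pathway genes, the calls of Adam17, Map2k1 and Bmp15 at PD16 against PD14 were also sensitive to the settings, and were kept in 7, 8 and 10 of 18 alternative fits, with adjusted p up to 0.121, 0.132 and 0.114.

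Genes whose levels followed each member most closely over the 9 libraries were found by Pearson's r among 8691 protein-coding genes with a mean of at least 5 FPKM, as a description without a test. For Kit, these were Trappc12 (r = 0.97), a subunit of the vesicle tethering complex TRAPP, Polr3c (0.96), a subunit of RNA polymerase III, Tle2 (0.96), a transcriptional corepressor, Rogdi (0.94) and Stx17 (0.93), a fusion protein of autophagosomes. Like Kit, Tle2 was lower in PD16 replicates 1 and 2 (6.15 and 6.37 FPKM) than in replicate 3 (8.47 FPKM) and highest in PD15 replicate 2 (11.7 FPKM). For Kitl, these were Pgap2 (r = 0.95), which acts on lipid-anchored proteins, Ralb (0.93), a small GTPase, 1500009L16Rik (0.93), Sh3tc2 (0.93) and Ebpl (0.93). Of the 10 genes, 1500009L16Rik was the only one called at PD16 against PD14, where 1.89% of all genes fell. It went from 6.69 ± 0.912 to 4.21 ± 0.576 FPKM (log2 difference -0.56, adjusted p = 0.0333 by limma). It was chosen for following Kitl, so its call is a description only. Kit and Kitl were not close to each other by this measure. Kitl stood at rank 1567 for Kit, and Kit at rank 1668 for Kitl. With Spearman's rho, 2 of the 5 genes for Kit and 1 of the 5 for Kitl were among the top 5. With 1 library left out, 2 to 4 of the 5 genes for Kit and 0 to 4 of the 5 for Kitl were among them, with 0 without PD15 replicate 3.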

How the data were processed

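The 9 libraries of Kunming mouse ovaries (PD14, PD15 and PD16, 3 each) were prepared with the NEBNext Ultra kit, which does not mark strand, and sequenced on an Illumina HiSeq platform, with the RNA-Seq carried out by Novogene. The authors deposited 1 table of FPKM per library, normalised for exon length and depth. The submitters' processing notes name HISAT2 2.0.5 and mm10, and the counter and annotation are not given in the sources used here. GENCODE M21 (GRCm38), which holds 50376 of the 52025 identifiers, supplied exon lengths, coordinates and sequences.

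Kit and Kitl and all lists were chosen with earlier results of these data known. Values were analysed as log2(FPKM + 1), and fold differences are on that scale, which understates changes of low genes. The 15495 genes whose mean exceeded 1 FPKM on any day were fitted by limma with an intensity trend over all 9 libraries, with Benjamini-Hochberg adjustment over all genes in each comparison and a threshold of 0.05. The p-values measure the spread between these samples. Comparisons share libraries, since each day enters 2 of them. Single values were tested by exact permutation. Between 95.6% and 96.2% of low values were whole fragments within a tolerance of 0.02, and no pair of libraries was identical. Intervals for counting error do not cover the spread between animals.

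Named genes were those called in each pathway list, its most abundant gene, the class III receptors, the first 2 genes and any called gene of each marker list, and the 5 genes most like each member. The marker lists were those of oocytes, granulosa cells, theca and interstitial cells, mast cells, melanocytes, endothelium, surface epithelium, stroma, blood cells, and oviduct and fat. The lists of function comprised ligand processing, receptor adaptors and kinases, the PI3K arm, the RAS and MAP kinase arm, negative regulators, class III receptors, their ligands and known regulators, of which 1 gene is not reported here. Alternatives were other pseudocounts (0.1 and 5), filters, TPM and median-ratio scaling, limma without trend, only the days compared, the replicate number as a block, and each library left out. The method was tested on simulated data. Fits used limma 3.58.1 in R 4.3.3. Permutation tests were enumerated with NumPy 2.4.6 in Python 3.11.15, tables were handled with pandas 2.3.3, and plots were drawn with Matplotlib 3.10.9.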

Additional observations from a re-analysis of the deposited data

How the results depend on the processing

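The difference of Kitl between PD14 and PD16 kept its direction in all 18 alternatives. It lost the call with a pseudocount of 0.1 (-0.51, adjusted p = 0.0506 by limma) or 5 (-0.47, 0.0505), without a low-value filter (-0.50, 0.117), without the trend (-0.50, 0.0614), with only the 2 days compared (-0.50, 0.0516) and with the replicate block (-0.50, 0.103). It kept the call with a filter at 5 FPKM and with both scalings. With 1 library left out, the difference was -0.56 to -0.41, and the call was kept only without PD15 replicate 3. The differences of Kit, and of Kitl in the other comparisons, kept their direction and missed the threshold in all alternatives. With 1 library left out, the between-day share was 43.5% to 77.9% for Kit, 63.4% to 82.2% for Kitl and 66.4% to 85.7% for Kitl relative to granulosa cell markers.

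Counts of all genes called were 105 for PD15 against PD14, 659 for PD16 against PD14 and 113 for PD16 against PD15. Without a low-value filter they were 29, 172 and 24, and with the replicate block 24, 227 and 56. The first was 63 with a filter at 5 FPKM and 47 with only the 2 days compared, and the second was 397 with TPM scaling and 320 with only the 2 days compared. With 1 library left out, they were 3 to 92, 93 to 666 and 14 to 125. Of the pathway genes, 0, 4 and 1 were called. With TPM scaling these were 1, 3 and 0, without a low-value filter 0, 1 and 0, and with the replicate block 0, 2 and 0. The last was also 0 without the trend and with only the 2 days compared. With 1 library left out, they were 0 to 1, 1 to 6 and 0 to 1. The cause of these shifts was not tested.

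No relation between members and markers passed a test, and several changed sign. With the median over the marker list, r was -0.029 for Kit with theca and interstitial markers and -0.51 for Kitl with granulosa cell markers. Without the 2 farthest libraries these were -0.16 and -0.016, and with 1 library left out the former was -0.071 (without PD16 replicate 2) to 0.59. On values centred by day, r was -0.13 for Kit with oocyte markers and -0.60 for Kit with Kitl.

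Replicate numbers did not pair the libraries. Deviations from the day means correlated at -0.21 to 0.16 between libraries of the same number, and the block is given only as an alternative. With 3 libraries a day, an exact permutation test of 2 days cannot go below p = 0.1. The tables hold FPKM without counts and sum all transcripts of a gene, so forms of Kit and Kitl were not analysed here. The libraries were of whole ovaries, so levels per cell were not analysed here either.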
